A study of Mus musculus with 9 samples.

Results

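Arc, Ttn, Map6, Csf1, Lgmn, Ptpn5, Acot11, Klhl5 and Fam160a1 lay at or near the table's lowest value in Treg cells lacking Thpok and LRF. In most libraries of Treg cells that keep both factors, these 9 genes were at middling levels. They are 9 of the 13698 genes measured, and were picked by name because their values in the deficient libraries were near the lowest. The low values in deficient cells, and the differences from both kinds of control, are therefore what chose these genes, and they are given here as a description with no test.

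Regulatory T (Treg) cells were sorted from the spleen and lymph nodes of female mice (strain background C56Bl6/129 mix) and their RNA sequenced, with 3 groups of 3 libraries, and every mouse carried one Foxp3 Cre-YFP allele. The deficient cells were YFP-positive cells of LRFffThpokff mice, in which both genes are floxed. The genetic controls were YFP-positive cells of mice that were wild type for both factors. As animal controls served CD25-high cells without YFP, taken from the same 3 mice as the deficient cells, so they carry the floxed alleles as well, and express the unmodified Foxp3 allele. The sort left out MHC class II-positive cells in every group. Cre is made from the Foxp3 locus, so deletion can begin only once a cell has switched Foxp3 on. The libraries of a group carry different mouse numbers, and no age is given.

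Thpok and LRF, encoded by Zbtb7b and Zbtb7a, are zinc finger proteins with a BTB domain, and Thpok is known for directing thymocytes to the CD4 lineage. Treg cells restrain other immune cells, and they depend on Foxp3, which lies on the X chromosome. In a female with one Foxp3 Cre-YFP allele, X inactivation leaves some Treg cells that use that allele and some that do not. The 9 genes belong to no single pathway. Several are best known outside the immune system: Arc, Map6 and Ptpn5 in neurons, Ttn in muscle and Acot11 in brown fat. Csf1 and Lgmn are well known in immunity, Csf1 as a growth factor of macrophages and Lgmn as a lysosomal protease.

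The labels were checked on the deleted genes and on Foxp3. Zbtb7b ranged from 0.147 to 0.366 CPM (read counts scaled to a common library total) in deficient cells, against 92.1 to 149 CPM in genetic controls and 76.9 to 106 CPM in animal controls. Zbtb7a overlapped between the groups (78.8 to 103 CPM in deficient cells, against 69.5 to 111 CPM in genetic controls and 90.6 to 128 CPM in animal controls), and the values are per gene, so they cannot show the loss of single exons. Foxp3 was detected in every library, at 26.5 to 35.9 CPM in deficient cells, 24.8 to 38.1 CPM in genetic controls and 754 to 999.7 CPM in animal controls. Summed markers of myeloid and dendritic cells (9 of 14 measured) ranged from 30.4 to 96.4 CPM in deficient cells, 23.0 to 400.5 CPM in genetic controls and 34.4 to 78.3 CPM in animal controls. The highest of these was genetic control 8619. Single markers within the sums had unlike patterns. Lyz2 had 9.62, 36.3 and 33.0 CPM in deficient cells and 3.11, 0.978 and 1.06 CPM in animal controls. Cybb had 0.00457, 23.7 and 1.2 CPM in deficient cells and 48.0, 6.72 and 60.5 CPM in animal controls. Of the erythroid and platelet markers (5 of 10 measured), only erythroid genes were measured. Their sum was also the highest in genetic control 8619, at 65.0 CPM. Deficient library 232614 followed at 40.3 CPM, while the other libraries had between 0.0771 and 1.13 CPM. B cell markers (5 of 8 measured) summed to 54.7 to 69.3 CPM in deficient cells, 13.8 to 30.5 CPM in genetic controls and 58.0 to 117 CPM in animal controls. Cd79b alone had 50.8, 45.0 and 67.1 CPM in deficient cells and 18.1, 12.6 and 22.5 CPM in genetic controls. Cd79a overlapped between these groups (2.18 to 7.79 against 1.13 to 10.4 CPM), and Fcrla and Ebf1 were at the lowest value in every deficient library. NK cell markers (3 of 6 measured) summed to 0.869 to 8.93 CPM in deficient cells, 4.82 to 13.4 CPM in genetic controls and 2.26 to 9.83 CPM in animal controls.

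All 9 genes are protein-coding and lie on 7 chromosomes (positions below are those of the gene in GENCODE M21, GRCm38). The promoters of 7 of them were found in the RefSeq table for GRCm38.p6, as 11 windows of 250 bases before a start site. A set of 4 is shown because all 4 genes were near the lowest value in deficient cells and the windows differ in a short motif. GACCC, part of the sequence that human ZBTB7A (LRF) is known to bind, is in capitals on either strand (GACCC or GGGTC), and the sequences run 5′ to 3′ on the gene's strand.
Klhl5 promoter, chr5:65107318-65107567, plus strand: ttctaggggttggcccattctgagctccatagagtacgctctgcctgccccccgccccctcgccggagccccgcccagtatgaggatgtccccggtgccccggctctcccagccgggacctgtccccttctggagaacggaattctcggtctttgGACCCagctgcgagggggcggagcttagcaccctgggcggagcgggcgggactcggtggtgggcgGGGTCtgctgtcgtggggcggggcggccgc
Acot11 promoter, chr4:106805008-106805257, minus strand: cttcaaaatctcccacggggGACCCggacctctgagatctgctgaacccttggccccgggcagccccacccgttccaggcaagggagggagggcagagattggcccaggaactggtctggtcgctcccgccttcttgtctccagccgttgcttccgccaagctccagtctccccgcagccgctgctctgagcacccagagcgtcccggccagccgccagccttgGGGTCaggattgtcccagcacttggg
Csf1 promoter, chr3:107760470-107760719, minus strand: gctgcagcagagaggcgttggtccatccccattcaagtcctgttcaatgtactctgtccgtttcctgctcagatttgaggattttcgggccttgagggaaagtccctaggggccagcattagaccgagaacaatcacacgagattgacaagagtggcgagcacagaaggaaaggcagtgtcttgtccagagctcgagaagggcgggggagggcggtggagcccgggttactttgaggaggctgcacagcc
Ttn promoter, chr2:76982548-76982797, minus strand: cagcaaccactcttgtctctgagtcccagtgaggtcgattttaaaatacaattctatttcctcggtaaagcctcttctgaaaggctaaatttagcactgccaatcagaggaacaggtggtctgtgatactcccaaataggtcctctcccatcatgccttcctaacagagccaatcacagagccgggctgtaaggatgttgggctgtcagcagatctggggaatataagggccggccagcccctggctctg

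The Klhl5 and Acot11 windows shown hold GACCC 2 times each, and those of Csf1 and Ttn do not hold it. The table has another window for each of the first pair of genes, with GACCC 1 time for Klhl5 and 0 times for Acot11. The motif was found in 7 of the 11 windows, against 38.7% of all 32851 windows of the RefSeq table. Those windows came from 5 of the 7 genes, a count by gene that has no such share beside it. TGTGGT, a core that Runx factors bind, was in 4 of the 11 windows (14.0% of all windows), and TGANTCA, the AP-1 motif, was in 0 (6.75% of all windows). The Lgmn window at chr12:102439093-102439342 counts for both GACCC and TGTGGT. The bases after its start were not found in a GENCODE M21 transcript of Lgmn. A form of the NF-kB motif (GGGA, any 2 bases and TTCC) was found once, in the Csf1 window above, against 1.21% of all windows. Both strands were searched, the motifs do not contain one another, and a match is a run of letters and not a site of binding. The median GC content was 56.4% in the 11 windows and 52.4% in all windows.

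Across the 27 values that the 9 genes had in the 3 deficient libraries, 17 were at the lowest value of the table, 0.00457 CPM (log2 of -7.77). None of the 54 values in the 6 control libraries was there. At least 1 deficient library was at the lowest value for 19.2% of all genes, and at least 2 were for 10.2%. Among the 9 genes, 8 had 2 deficient libraries at the lowest value and Csf1 had 1. The other 10 values were between the second and the seventh lowest of the 7188 to 7305 distinct values in a deficient library, and the highest was 0.147 CPM. Many genes share each of these lowest values (for example 1551 genes at the lowest and 352 at the second lowest in deficient library 232614), so they may stand for a few reads or none, which was not tested because the deposited values hold no counts.

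In control libraries the same genes were neither rare nor abundant. Their 54 control values had a median percentile of 47.6 among all genes of a library, and 47 of the 54 were at least 5 CPM. For all 9 genes every deficient library was below all 6 control libraries, which held for 3.33% of the table, and which the choice of genes used. In such bulk libraries, fewer cells that express a gene and less RNA per cell cannot be told apart.

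**Figure D1:**
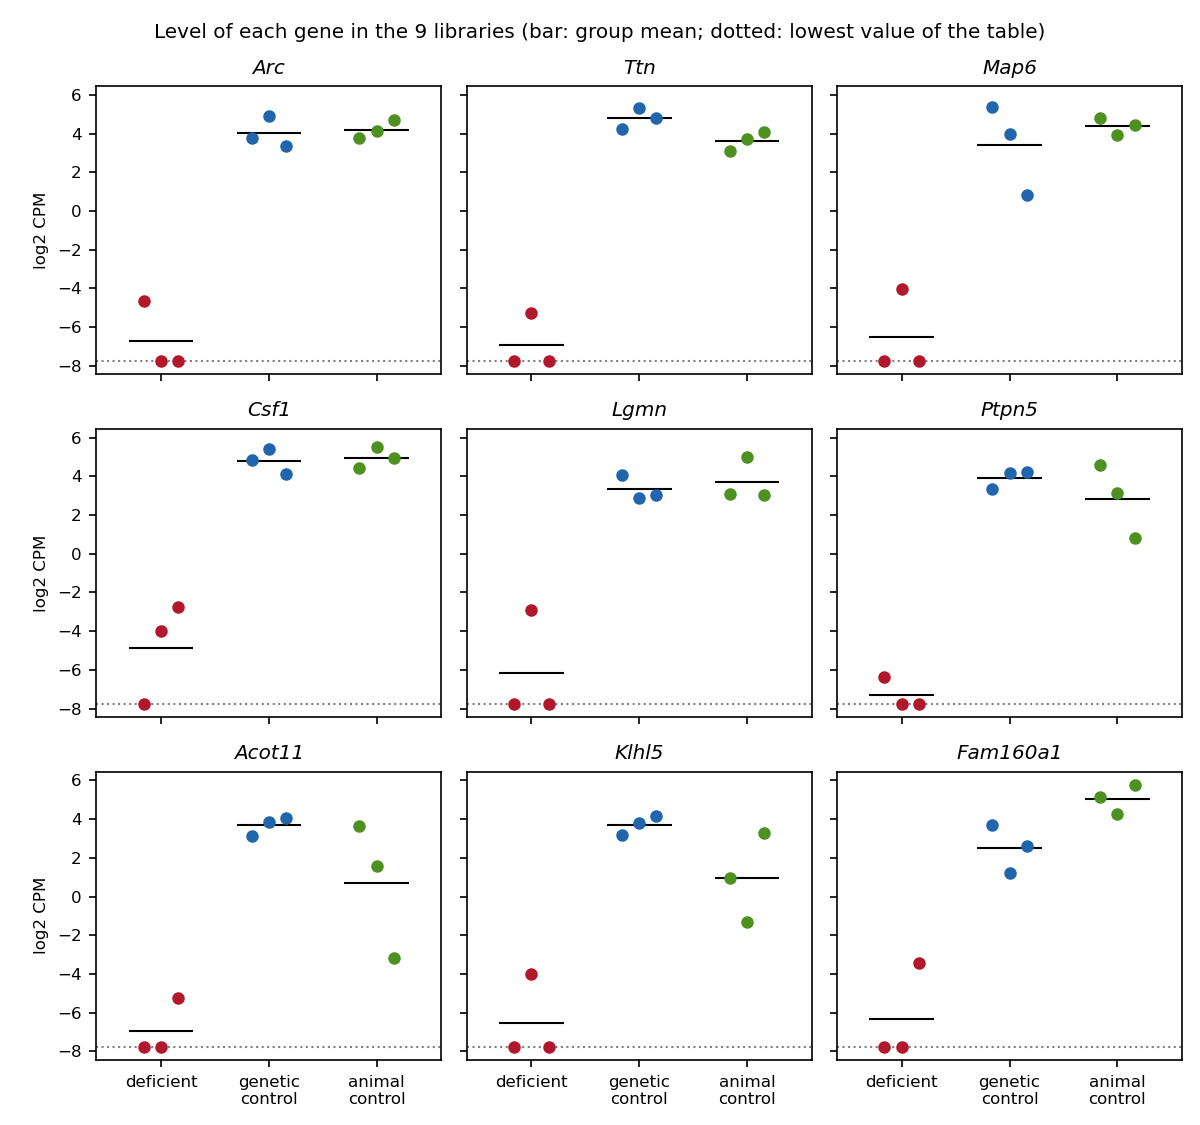
Each panel gives the log2 CPM of 1 gene in the 9 libraries, with deficient cells left of genetic and animal controls, bars at group means and a dotted line at the lowest value of the table (-7.77). Every panel has deficient points on that line, and the other deficient points reach up to -2.76 (Csf1). Each lies below all control points of its gene, of which the lowest is Acot11 in animal control 432614, at -3.17. The control points of Acot11, Klhl5, Fam160a1 and Map6 span the widest ranges.

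Csf1 (chr3:107741048-107760469, minus strand) encodes the growth factor of macrophages and monocytes, and its receptor is Csf1r. It measured 0.00457, 0.0620 and 0.147 CPM in deficient libraries 142114, 232614 and 432614. Genetic controls 124, 8619 and 8800 had 28.6, 42.4 and 17.6 CPM, and animal controls 142114, 232614 and 432614 had 21.8, 45.8 and 31.1 CPM. Csf1 was the only one of the 9 genes with values off the lowest in more than 1 deficient library, and its controls were the least spread, with a ratio of 2.6 between the highest and the lowest.

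Lgmn (chr12:102394084-102439813, minus strand) encodes legumain, which cuts proteins after asparagine in lysosomes. Its deficient libraries had 0.00457, 0.134 and 0.00457 CPM. It measured 17.1, 7.33 and 8.23 CPM in the genetic controls, and 8.61, 32.3 and 8.31 CPM in the animal controls. Of the 6 controls, 4 lay between 7.33 and 8.61 CPM, and genetic control 124 and animal control 232614 were higher. Macrophages also express Lgmn, and a part of other cells in the Csf1 and Lgmn values was not tested. Genetic control 8619, which had the highest sum of myeloid and dendritic markers (400.5 CPM, 0 of 9 markers at the lowest value), was lowest of the controls for Lgmn, second highest for Csf1 and highest for Arc and Ttn. Animal control 232614, highest for Csf1 and Lgmn, had a sum of 34.4 CPM with 2 of the 9 markers at the lowest value (Emr1 and Cd68). Its Fcgr3 (13.3 CPM) and Zbtb46 (13.2 CPM) were the highest of all 9 libraries, and its Lyz2 (0.978 CPM) was the lowest. The rest of its markers were Cybb (6.72 CPM), Csf1r (0.213 CPM), and Tyrobp and Fcer1g (0.0317 CPM each).

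Arc (chr15:74669083-74672570, minus strand) is an immediate early gene of neurons, whose protein acts at synapses and assembles into capsids. It had 0.0402, 0.00457 and 0.00457 CPM in deficient libraries 142114, 232614 and 432614. The genetic controls had 13.8, 30.1 and 10.3 CPM, and the animal controls 13.5, 17.8 and 26.0 CPM. The 2 kinds of control overlapped, and the lowest control was 7.999 log2 units above the highest deficient library.

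Ptpn5 (chr7:47077795-47133684, minus strand) encodes a tyrosine phosphatase, known as STEP, that acts on MAP kinases and on Fyn. Its deficient libraries had 0.0120, 0.00457 and 0.00457 CPM. The genetic controls had 10.3, 17.8 and 18.7 CPM, and the animal controls 24.3, 8.75 and 1.75 CPM. The animal controls thus ran both above and below all genetic controls.

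Map6 (chr7:99267447-99337137, plus strand) encodes a protein that stabilizes microtubules. It measured 0.00457, 0.0620 and 0.00457 CPM in the deficient libraries. The genetic controls had 41.3, 15.9 and 1.74 CPM, and the animal controls 27.5, 15.1 and 21.4 CPM. Genetic control 8800 had the lowest Map6 of the 6 controls and the highest Acot11 and Klhl5.

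Ttn (chr2:76703980-76982547, minus strand) encodes titin, the elastic giant of the muscle sarcomere. It had 0.00457, 0.0260 and 0.00457 CPM in the deficient libraries, 18.9, 39.9 and 28.5 CPM in the genetic controls and 8.46, 13.2 and 16.7 CPM in the animal controls. Every genetic control was above every animal control. The annotated exons of Ttn add up to 114 kb, and which part of them gave the reads was not tested. Per kb of annotated exon Ttn averaged 1.03e-04 ± 1.09e-04 CPM in deficient cells, 0.256 ± 0.0923 CPM in genetic controls and 0.113 ± 0.0363 CPM in animal controls (SD, n = 3 each). An antisense gene, Gm13938, overlaps 5 of the annotated Ttn exons, and reads of both genes cannot be told apart without strand.

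Acot11, Klhl5 and Fam160a1 had the largest differences between the mean log2 values of the 2 control groups. Acot11 (chr4:106744555-106804998, minus strand), a thioesterase that frees fatty acids from coenzyme A, measured 0.00457, 0.00457 and 0.0260 CPM in the deficient libraries, 8.75, 14.7 and 16.9 CPM in the genetic controls and 12.5, 3.01 and 0.111 CPM in the animal controls. Animal control 432614 thus came within 2.09 log2 units of the highest deficient library. Of the annotated exons of Acot11, 2 overlap Fam151a on the other strand, which was not in the table.

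Klhl5 (chr5:65107539-65168188, plus strand) belongs to the BTB-Kelch proteins, many of which bring substrates to the ubiquitin ligase Cul3. It had 0.00457, 0.0620 and 0.00457 CPM in the deficient libraries, 9.22, 13.8 and 17.7 CPM in the genetic controls and 1.93, 0.400 and 9.65 CPM in the animal controls. Animal control 232614 was 2.69 log2 units above the highest deficient library. Acot11 and Klhl5 each had 1 animal control under 1 CPM, in different mice, and the other 7 genes had no control that low.

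Fam160a1 (chr3:85660061-85817291, minus strand) belongs to a family whose proteins join the FTS-Hook complex, a link between cargo and dynein. It measured 0.00457, 0.00457 and 0.0932 CPM in the deficient libraries, 13.0, 2.31 and 6.21 CPM in the genetic controls and 35.0, 19.4 and 55.1 CPM in the animal controls. Every animal control was above every genetic control, the reverse of the order seen for Ttn.

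Levels can be set side by side between genes only per length, here that of all annotated exons. Which of these exons the cells use was not tested. In genetic controls the mean level per kb of exon was highest for Csf1 (6.26 ± 2.63 CPM per kb), followed by Arc (5.91 ± 3.47), Lgmn (5.39 ± 2.67) and Ptpn5 (4.36 ± 1.29, all CPM per kb, SD, n = 3), which lie within each other's spread. Klhl5 (3.45 ± 1.08), Map6 (3.21 ± 3.28), Acot11 (2.33 ± 0.732) and Fam160a1 (1.61 ± 1.21 CPM per kb) came next, and Ttn was far below them. In animal controls Fam160a1 (8.18 ± 4.01), Lgmn (8.13 ± 6.82), Csf1 (6.98 ± 2.57) and Arc (6.25 ± 2.07 CPM per kb) were highest and overlapped. Map6 (3.49 ± 1.02) and Ptpn5 (3.25 ± 3.23) followed, then Klhl5 (1.01 ± 1.26), Acot11 (0.899 ± 1.12) and Ttn (0.113 ± 0.0363 CPM per kb). As a set the genes were long: 8 of the 9 had more exon sequence than the median gene of the table, with medians of 4.46 kb for these genes and 2.85 kb for all, and gene spans of 60.4 kb and 18.6 kb.

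On the deposited log2 scale the median difference of the 9 genes was -10.23 for deficient cells minus genetic controls and -10.15 for deficient cells minus animal controls, where the medians over all genes were 0.04 in both. Such differences depend on where the lowest value of the table lies. On the log2(CPM + 1) scale, which compresses that range, the median differences were -3.79 and -3.78, from -2.75 (Fam160a1) to -4.83 (Ttn) against genetic controls and from -1.78 (Klhl5) to -5.06 (Fam160a1) against animal controls. Both comparisons share the deficient libraries. Without genetic control 8619 and deficient library 232614, those with the most erythroid markers, the log2 differences of the 9 genes ranged from -12.31 to -8.76 against genetic controls and from -12.15 to -7.21 against animal controls, and their sign was fixed by the choice of genes.

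The comparison of the 2 kinds of control asks whether these genes differ between cells that both keep Thpok and LRF but differ in mouse, Foxp3 allele and sorting gate. The values that chose the genes were those of the deficient cells, although a gene also had to be well above them in controls. Between the controls, 0 of the 9 genes passed the test (limma, FDR under 0.05, 3 against 3 libraries), and the same test called 0.0365% of all genes. At an unadjusted p under 0.05 the count was also 0 of 9 (6.62% of all genes), but the error of this fit holds the scatter of the near-silent deficient values. With the 6 control libraries alone it was 2 of 9 (Ttn and Fam160a1, 6% of all genes), and on the log2(CPM + 1) scale 2 of 9 (Fam160a1 and Klhl5, 6.66% of all genes). Genetic controls were higher for 4 genes and lower for 5, with a median log2 difference of -0.18, against -0.02 for all genes. The groups did not overlap for 2 of the 9 genes, Ttn and Fam160a1, and for 10.4% of all genes.

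On the deposited log2 scale the control difference was largest for Acot11, which averaged 13.5 ± 4.23 CPM in genetic controls and 5.2 ± 6.47 CPM in animal controls (log2 difference 3.01 ± 1.91 SE, limma adjusted p = 0.829), followed by Klhl5, at 13.6 ± 4.24 CPM in genetic controls and 3.99 ± 4.95 CPM in animal controls (2.74 ± 1.71 SE, adjusted p = 0.829). Fam160a1 averaged 7.16 ± 5.38 CPM in genetic controls and 36.5 ± 17.9 CPM in animal controls (-2.55 ± 1.5 SE, adjusted p = 0.812). On the log2(CPM + 1) scale the order was Fam160a1 (-2.32), Klhl5 (2.004) and Acot11 (1.84). Single animal controls moved these values: the Acot11 difference was 1.08 without 432614, and the Klhl5 difference 1.60 without 232614. Ttn averaged 29.1 ± 10.5 CPM in genetic controls and 12.8 ± 4.13 CPM in animal controls (1.17 ± 1.20 SE, adjusted p = 0.928). Csf1, at 29.5 ± 12.4 CPM in genetic controls and 32.9 ± 12.1 CPM in animal controls, differed by -0.18 ± 1.29 (SE), and Arc, at 18.1 ± 10.6 CPM in genetic controls and 19.1 ± 6.34 CPM in animal controls, by -0.18 ± 1.28 (SE). These errors come from the model of all 9 libraries. With the 6 control libraries alone, the standard error of Csf1 was 0.465 and that of Fam160a1 0.776, and again 0 of the 9 genes passed (lowest adjusted p = 0.696).

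**Figure D2:**
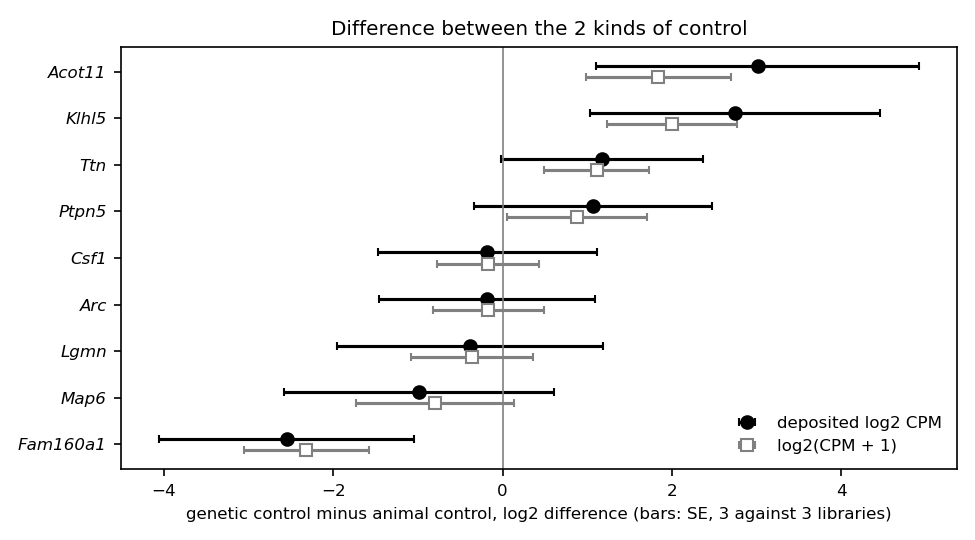
Points give the log2 difference of genetic minus animal controls for each gene with its standard error (n = 3 against 3), on the deposited scale (filled) and on the log2(CPM + 1) scale (open). Acot11 and Klhl5 lie farthest to the right, at 3.01 and 2.74, and Fam160a1 farthest to the left, at -2.55.

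The whole table was searched for the same pattern. With a mean under 0.1 CPM in deficient cells and of at least 10 CPM in both control groups, 16 genes (0.117% of the table) were found, and 6 of them were among the 9: Arc, Ttn, Map6, Csf1, Lgmn and Ptpn5. The 9 genes were chosen for low values in deficient cells, so their presence among the 16 was favoured by that choice. The mirror patterns, with the genetic or the animal controls as the low group, held for 2 genes each. A mirror pattern needs the 2 kinds of control, which both keep Thpok and LRF, to differ from each other. These counts are therefore no baseline for the 16, and the counts were not tested against each other. Acot11, Klhl5 and Fam160a1 missed the limit of 10 CPM in 1 control group, and at a limit of 5 CPM the counts became 50, 16 and 15, with 8 of the 9 genes among the 50. The means nearest to the limit of 0.1 CPM in deficient cells, which takes no account of gene length, were those of Csf1 (0.0713 CPM), Mpzl3 (0.0778 CPM) and Atxn1 (0.0806 CPM) inside it and of Cxcr6 (0.105 CPM) outside it. The deficient count was 26 without deficient library 232614 or without 432614. The genetic control count reached 6 without genetic control 124 and 4 without 8619, and was 1 without deficient library 232614. The animal control count reached 5 without animal control 142114 or 232614, and was 1 without genetic control 124 or 8619.

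**Figure D3:**
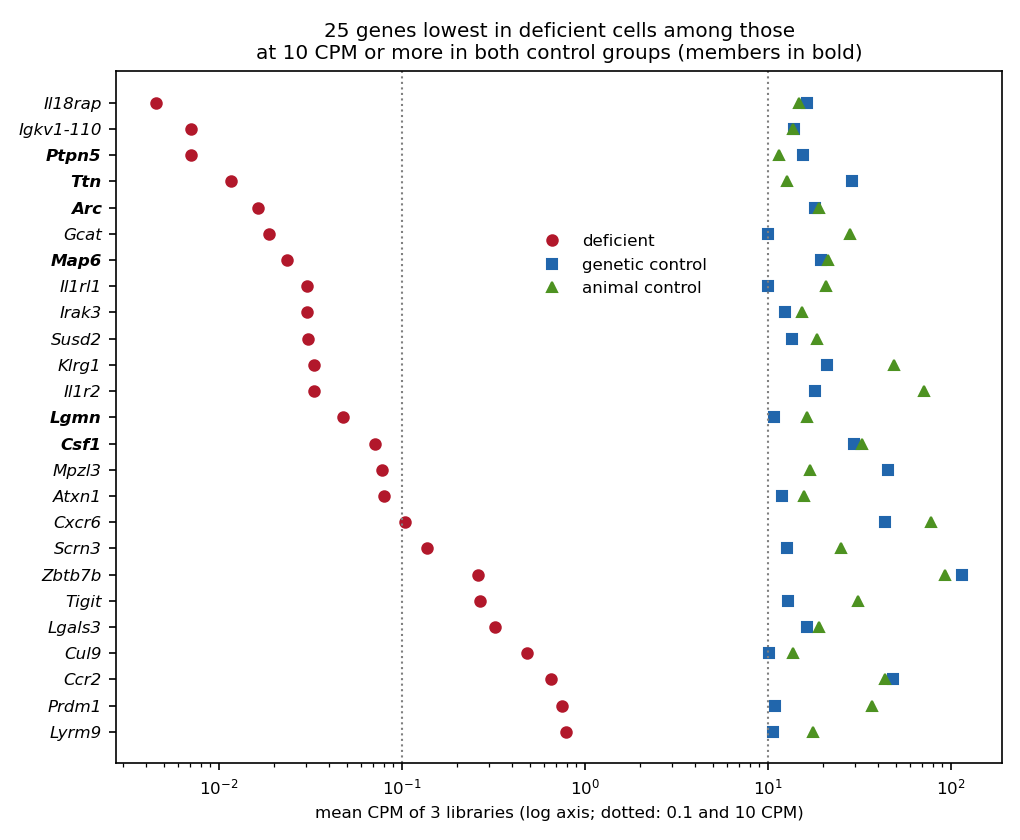
The 25 genes with the lowest mean in deficient cells among those with at least 10 CPM in both control groups, in order of that mean, are plotted as mean CPM of 3 libraries on a log axis for the 3 groups. The 6 genes in bold are interleaved with others such as Il18rap, Gcat and Klrg1, and Zbtb7b, at 0.260 CPM in deficient cells, comes after all of them.

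Among the genes most like the mean log2 profile of the 9 genes over the 9 libraries were, by root-mean-square distance, Il9r, Ddr1, Crip2, Lilrb4, Il1rl1, Gcat and Atxn1, at 1.11 to 1.59 log2 units. The 9 genes themselves lay at 0.911 (Ttn) to 2.34 (Acot11) from their own mean. Il9r, the receptor chain for IL-9, was at the lowest value in all 3 deficient libraries, against 9.43, 14.5 and 3.78 CPM in genetic controls and 11.6, 20.5 and 15.9 CPM in animal controls. Ddr1, a collagen receptor kinase, averaged 0.0142 CPM in deficient cells, against 7.18 ± 1.97 CPM in genetic controls and 11.4 ± 8.19 CPM in animal controls (SD, n = 3).

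Genes of the family or pathway of each of the 9, only some of them known to work with it, were read as 9 lists with 142 measured genes. Against genetic controls, 1 of the 142 rose and 1 fell, where 0.869% of all genes passed (0.336% rose and 0.533% fell). Against animal controls, 2 rose and 4 fell, where 0.891% passed (0.307% rose and 0.584% fell). The list medians were -0.10 and 0.14 on the log2 scale, against 0.04 and 0.04 for all genes. With the mouse as a fixed term in a fit of the deficient cells and animal controls, 0 genes of the table passed (lowest limma adjusted p = 0.0953, 1395 genes at an unadjusted p under 0.05), and so 0 of the 142. The log2 differences of that fit equal those of the main fit, and its few mice leave little to estimate the error from. The lost calls therefore do not show smaller differences.

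Of the phosphatases and MAP kinase genes beside Ptpn5, 0 of 25 measured rose and 1 fell against each control. That gene was Ptpn7, a haematopoietic phosphatase of the same MAP kinase-binding group. It had 129, 79.3 and 98.1 CPM in the deficient libraries, 314, 184 and 353 CPM in the genetic controls and 282, 285 and 323 CPM in the animal controls, with no overlap. It fell by 1.45 ± 0.26 (SE) on the log2 scale against genetic controls (limma adjusted p = 0.0381) and by 1.57 ± 0.26 against animal controls (adjusted p = 0.0245). The calls held in 1 and in 4 of the 9 fits that leave out 1 library, with adjusted p up to 0.143 and 0.0986.

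Of the microtubule-associated genes beside Map6, 1 of 18 rose and 0 fell against each control. The gene was Tubb3, a tubulin of neurons. It rose to 12.2, 7.67 and 14.7 CPM in the deficient libraries, against 0.00660, 0.00457 and 0.00457 CPM in the genetic controls (limma adjusted p = 0.0237) and 0.0641, 0.00457 and 0.00789 CPM in the animal controls (adjusted p = 0.0381), a pattern opposite to that of Map6. The calls held in 3 and in 0 of the 9 fits without 1 library, with adjusted p up to 0.0892 and 0.120, although the groups did not overlap.

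Among lysosomal proteases and cystatins, the list of Lgmn, 0 of 19 rose and 0 fell against genetic controls, and 1 rose and 3 fell against animal controls. At an unadjusted p under 0.05 (limma) the counts were 6 and 8 of 19, where 10.6% and 11.9% of all genes passed. Ctss, a protease of antigen processing, averaged 282 ± 26.1 CPM in deficient cells, 417 ± 27.5 CPM in genetic controls and 537 ± 39.1 CPM in animal controls. It fell by 0.93 ± 0.12 (SE, log2) against animal controls (limma adjusted p = 0.00617) and differed by -0.57 ± 0.12 from genetic controls (adjusted p = 0.0715). The call against animal controls held in all 9 fits without 1 library, and was lost without the mean-variance trend (adjusted p = 0.173) and with the mouse as a fixed term (adjusted p = 0.284). Ctsf, a further cathepsin, was at the lowest value in all 3 deficient libraries, against 0.00457, 0.0188 and 0.0213 CPM in genetic controls and 5.12, 12.5 and 11.1 CPM in animal controls (adjusted p = 0.0154 against animal controls). Ctsf was therefore low in both YFP-positive groups, unlike Lgmn. Ctss was also lower in every genetic control (389 to 444 CPM) than in any animal control (498 to 576.5 CPM). Animal controls differ from deficient cells in Foxp3 allele and sorting gate too, which comparisons with them cannot separate from the loss of Thpok and LRF.

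Ctsw, a cathepsin of cytotoxic lymphocytes, averaged 268 ± 30.4 CPM in deficient cells, 128 ± 17.7 CPM in genetic controls and 92.0 ± 31.5 CPM in animal controls. It rose by 1.59 ± 0.26 (SE, log2) against animal controls (limma adjusted p = 0.0188) and differed by 1.06 ± 0.26 from genetic controls (adjusted p = 0.115). Cst7, an inhibitor of cysteine proteases, averaged 44.8 ± 7.54 CPM in deficient cells, 91.0 ± 14.1 CPM in genetic controls and 156 ± 59.3 CPM in animal controls. It fell by 1.75 ± 0.30 against animal controls (adjusted p = 0.0280) and differed by -1.02 ± 0.30 from genetic controls (adjusted p = 0.212). It was named beyond the rule of 3 genes a list, after its values were seen. Without the trend the calls of Ctsw, Cst7 and Ptpn7 were lost too (adjusted p = 0.116 for Ctsw, 0.108 for Cst7, and 0.189 and 0.147 for Ptpn7 against genetic and animal controls), and those of Ctsf and Tubb3 held. The calls against animal controls held in 3 (Ctsf), 5 (Ctsw) and 4 (Cst7) of the 9 fits without 1 library, with adjusted p up to 0.0747, 0.0743 and 0.0886.

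**Figure D4:**
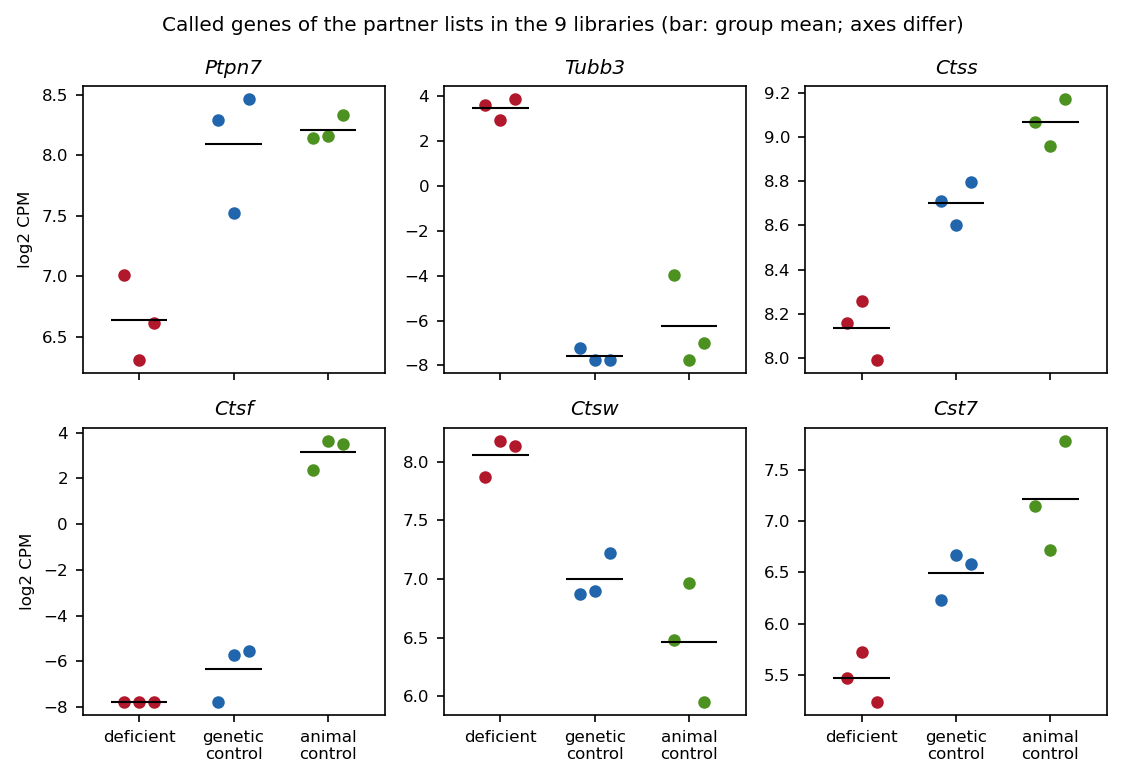
The 6 called genes of the lists are plotted as log2 CPM in the 9 libraries, with deficient cells left of genetic and animal controls and bars at group means (axes differ). Ptpn7 and Cst7 are lower and Ctsw and Tubb3 higher in every deficient library than in any control, and Ctsf is high in animal controls only.

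The remaining lists held 0 called genes against either control. In brackets are the genes measured and those with an unadjusted p under 0.05 in limma against genetic and then animal controls, a threshold that 10.6% and 11.9% of all genes passed. These lists were the immediate early genes beside Arc (17 measured, 3 and 3), sarcomere and actin cross-linking genes beside Ttn (11 measured, 1 and 1), colony-stimulating factors and receptors (5 measured, 0 and 0), acyl-CoA thioesterases beside Acot11 (12 measured, 1 and 1), Kelch and Cul3 genes beside Klhl5 (24 measured, 2 and 1) and the FTS-Hook genes beside Fam160a1 (11 measured, 2 and 0). Csf1r, the receptor of Csf1, had 0.00457, 22.2 and 0.0260 CPM in deficient libraries, 0.0120, 34.9 and 10.8 CPM in genetic controls and 0.00457, 0.213 and 0.00789 CPM in animal controls. Its high values lay in deficient library 232614, genetic control 8619 and genetic control 8800. The first 2 of these had the most erythroid markers and the highest sums of myeloid and dendritic markers (96.4 and 400.5 CPM). Csf1r is itself a part of the myeloid and dendritic sum. The library with the most Csf1, animal control 232614, had little Csf1r. The part of other cells in the Csf1r values was not tested.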

How the data were processed

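Per the labels, RNA was purified on RNeasy columns, cDNA made with the SMARTer Ultra Low Input kit and libraries with Nextera XT. The submitters' processing notes name bcl2fastq 1.8.4, STAR 2.4.0h, mm10 and limma; no source used here gives the counting tool, annotation or filters. The table as deposited holds log2 CPM, which the authors had quantile-normalized, as read from the values: each library sums to about 999255 CPM and all share the lowest and highest value. Depth is therefore unknown. Of 13702 rows, 4 duplicates were dropped. Values were used as deposited, without pseudocount or filter.

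The members, gene lists and tests were chosen with earlier results of these data known. The test was limma-trend (limma 3.58.1, R 4.3.3) on 1 model of 3 group means over all 9 libraries, two-sided, with p-values adjusted over the whole table (Benjamini-Hochberg, FDR under 0.05). The fit was tested on simulated data. An exact permutation test of 3 libraries against 3 cannot go below p = 0.1, so none was run. Alternatives left out each library, the trend, low genes (mean log2 under 0) or the other group, used log2(CPM + 1), or added the mouse as a random or fixed term. Deficient cells and animal controls with the same number come from the same mouse, per the series design; deviations from group means had correlations of 0.0483, 0.0202 and 0.0170 over 7550 genes in the 3 mice, against -0.0304 to 0.00803 between mice.

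Named genes were the 9 members, at most 3 called genes a list (lowest adjusted p) and the 8 genes nearest to the mean member profile (1 of them is not reported here), for which predicted genes, clone names and antigen-receptor segments were left out. Cst7, Csf1r, the genes near the limit of the near-silent search and those in the closing observations were named after their values were seen. Coordinates and exon lengths are from GENCODE M21 (GRCm38), which held 93.8% of the table's symbols once.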

Additional observations from a re-analysis of the deposited data

How the results depend on the processing

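Between the 2 kinds of control, 0 of the 9 genes passed in the alternatives run, of which the filter on low genes tested only 6 (Acot11, Klhl5 and Ptpn5 were filtered out). The signs reversed for 4 of them in fits without 1 library: over these fits the log2 difference of genetic minus animal controls ran from -0.63 to 0.14 for Arc, -1.98 to 0.30 for Map6, -0.49 to 0.15 for Csf1 and -0.77 to 0.26 for Lgmn. The other 5 kept their sign but also moved, from 0.90 to 1.45 for Ttn, 0.05 to 1.95 for Ptpn5, 1.08 to 4.49 for Acot11, 1.60 to 3.90 for Klhl5 and -3.14 to -1.90 for Fam160a1. The sign of the difference of deficient cells from either control was fixed by the choice of genes. On the log2(CPM + 1) scale all 18 differences were smaller, which adding 1 CPM to both sides fixes in advance.

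The number of genes called in the whole table moved more. For genetic minus animal controls it was 5, with 32 without the trend, 3 on the 6 libraries alone and 4 to 10 without 1 library. For deficient cells against genetic controls it was 119, with 22 on the 6 libraries alone, 29 without both genetic control 8619 and deficient library 232614, and 48 to 93 without 1 library. For deficient cells against animal controls it was 122, with 52 on the 6 libraries alone, 60 without those 2 libraries and 58 to 115 without 1 library. Paired by mouse as a fixed replicate block it was 0, and as a random block 148, and the random block changed no call of the 9 genes between the controls.

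Of the 142 list genes, the 2 called against genetic controls became 1 without the trend, 1 with the filter on low genes, 0 on the 6 libraries alone, 1 without the 2 libraries and 0 to 1 without 1 library. The 6 called against animal controls became 2 without the trend, 3 on the 6 libraries alone, 0 with the fixed block, 2 without the 2 libraries and 1 to 5 without 1 library. Near-silent genes numbered 13 to 26 (deficient), 1 to 6 (genetic controls) and 1 to 5 (animal controls) without 1 library, and 50, 16 and 15 at 5 CPM; without the 2 libraries the control counts were 4 and 1. The near-silent counts at other settings and the omission of 2 libraries together were added after the data were seen. The cause of the shifts was not tested. Depth is unknown, which limits what a value near the lowest can show.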

Other observations

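The other 10 of the 16 near-silent genes were Il1r2, Il1rl1, Gcat, Klrg1, Atxn1, Susd2, Irak3, Il18rap, Igkv1-110 and Mpzl3. Klrg1, an inhibitory receptor of lymphocytes, averaged 0.0331 CPM in deficient cells, against 3.56, 15.3 and 44.2 CPM in genetic controls and 65.8, 53.3 and 28.4 CPM in animal controls. Gcat, an enzyme of threonine breakdown, averaged 0.0189 CPM in deficient cells, against 1.56, 8.56 and 20.0 CPM in genetic controls and 35.6, 18.2 and 30.7 CPM in animal controls. Il1r2, the decoy receptor for IL-1, averaged 0.0333 CPM in deficient cells, against 18.2 ± 1.97 CPM in genetic controls and 71.7 ± 11.9 CPM in animal controls (SD, n = 3). Il1rl1, which binds IL-33, averaged 0.0302 CPM in deficient cells, against 10.1 ± 0.834 CPM in genetic controls and 20.9 ± 9.57 CPM in animal controls. Irak3, a brake on signalling by IL-1 and Toll-like receptors, averaged 0.0305 CPM in deficient cells, against 12.4 ± 5.09 CPM in genetic controls and 15.5 ± 13.3 CPM in animal controls. Il18rap, a chain of the IL-18 receptor, was at the lowest value in all 3 deficient libraries. It was also near the lowest in genetic control 124 (0.00660 CPM) and animal control 142114 (0.00789 CPM), while the other genetic controls had 31.9 and 17.5 CPM and the other animal controls 28.0 and 16.4 CPM.

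A mean of at least 10 CPM does not mean that every control library had the gene. Igkv1-110, an immunoglobulin segment, was at the lowest value in genetic control 124 and animal control 432614, and reached 42.0 CPM in genetic control 8619 and 39.0 CPM in animal control 232614. Mpzl3, a membrane protein, had 46.5, 88.1 and 1.52 CPM in genetic controls and 18.1, 32.7 and 0.185 CPM in animal controls. Susd2 had 0.0290 CPM in genetic control 8800, and Irak3 0.157 CPM in animal control 232614. Of the 9 genes described above, the 6 that met this limit had no control library under 1.74 CPM. That was not particular to them. It also held for Il1r2, Il1rl1, Klrg1 and Atxn1, whose lowest controls had 16.5, 9.16, 3.56 and 2.54 CPM.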
